A study of Mus musculus with 6 samples.

Results

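The genes described here are 39 genes of the hypoxia response and of glycolysis, in whole lung of Scnn1b-transgenic (Scnn1b-Tg) and wild-type mice. They fall into 5 oxygen-sensing genes, 11 hypoxia targets outside glycolysis, 3 glucose and lactate transporters, 17 glycolytic enzymes with lactate dehydrogenase, and 3 switches of glycolytic flux. A gene was represented by the brightest probe set that the platform annotation gives to that gene alone, and 37 of the 39 genes had one, of 19935 genes in all. Gpi1 and Eno1 had none and were not analysed here. The groups were 3 Scnn1b-Tg lungs, which carry a transgene for a subunit of the lung's epithelial sodium channel (ENaC), and 3 wild-type lungs, all of the C57BL/6 background, and the study was set up to look for emphysema genes. The transgene's promoter, the age and sex of the mice and any pooling are not stated in the sources used here. Whether each sample is its own mouse is not stated either, so every p-value reflects sample-to-sample spread that may be technical.

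Cells sense oxygen through prolyl hydroxylases (Egln1, Egln2 and Egln3), which mark the α subunits of hypoxia-inducible factor (HIF), Hif1a and Epas1, for destruction while oxygen is present. When oxygen falls the α subunits persist, pair with Arnt and switch on genes for glucose uptake, glycolysis, angiogenesis and mitochondrial turnover. This control acts mostly on the proteins, so the mRNA of Hif1a or Epas1 does not report HIF activity, whereas Egln3, Ankrd37 and Car9 are well-known target genes. In the lung Epas1 is prominent in endothelium.

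Array medians lay between 48.3 and 48.5 in Scnn1b-Tg and between 47.6 and 47.8 in wild type, in linear RMA intensity units. Scnn1b had 1405, 1527 and 1333 in Scnn1b-Tg lungs, against 172, 108 and 139 in wild-type lungs, and was the only gene called in limma (adjusted p = 0.00241). The lung markers Sftpc, of alveolar type 2 cells, and Ager, of alveolar type 1 cells, averaged 7973 ± 487 and 2279 ± 112 in Scnn1b-Tg (SD, n = 3) and 7948 ± 614 and 2261 ± 90.5 in wild type (SD, n = 3). Wild type replicate 2 stood apart on the first principal component at 16.3, where the other arrays lay between -8.91 and 5.46, and Scnn1b-Tg replicate 3 stood apart on the second at -13.3, where the other arrays lay between -2.47 and 8.03. Results that rest on these arrays are given without them as well.

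Of the 37 measured genes, Egln3, the transporters Slc2a1 and Slc16a3 and 10 of 15 glycolytic enzymes had every Scnn1b-Tg array above every wild-type array, by small margins. The HIF subunits Hif1a and Epas1 overlapped between genotypes. Among the glycolysis genes Hk1, Pfkm, Eno2, Pfkfb4 and Pdk1 had log2 fold changes below 0, as did 7 of the 11 hypoxia targets outside glycolysis. Pdk1 was at -0.0025, and Hk1 was above 0 (0.11) with its other probe set. None of the 37 genes passed an adjusted p of 0.05 over all genes (limma, smallest adjusted p = 0.139), and 0.00502% of all genes did. At an unadjusted p under 0.05, 11 of 37 were higher in Scnn1b-Tg, where 3.96% of all genes were, and 0 were lower, where 2.05% of all genes were. For 13 of 37 genes every Scnn1b-Tg array lay above every wild-type array, which held for 6.26% of all genes, and for 1 every Scnn1b-Tg array lay below, which held for 4.41%. The log2 fold change was above 0 for 25 of 37, where 53.2% of all genes were above 0. The median log2 fold change of the 37 was 0.08, beside 0.0052 over all genes.

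Set side by side, the 16 oxygen-sensing genes and non-glycolytic targets had 9 members higher, 7 lower and a median log2 fold change of 0.02. The 21 measured transporters, enzymes and flux switches had 16 higher, 5 lower and a median of 0.11. The genotypes did not overlap, with Scnn1b-Tg higher, for 1 of the 16, for 12 of the 21 and for 6.26% of all genes. The difference between the 2 sets was not tested. Without wild type replicate 2 and Scnn1b-Tg replicate 3, 7 of 37 were higher at an unadjusted p under 0.05, where 4.14% of all genes were, and 1 was lower, where 2.99% were. The medians of the 2 sets were then 0.02 and 0.09. Scnn1b-Tg was then separate and higher for 4 of the 16 and 13 of the 21, where 19.1% of all genes were. It was separate and lower for 3 of the 16 and 1 of the 21, where 16.8% of all genes were. Whole lung was measured, so more cells of a type and more RNA per cell cannot be told apart.

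**Figure D1:**
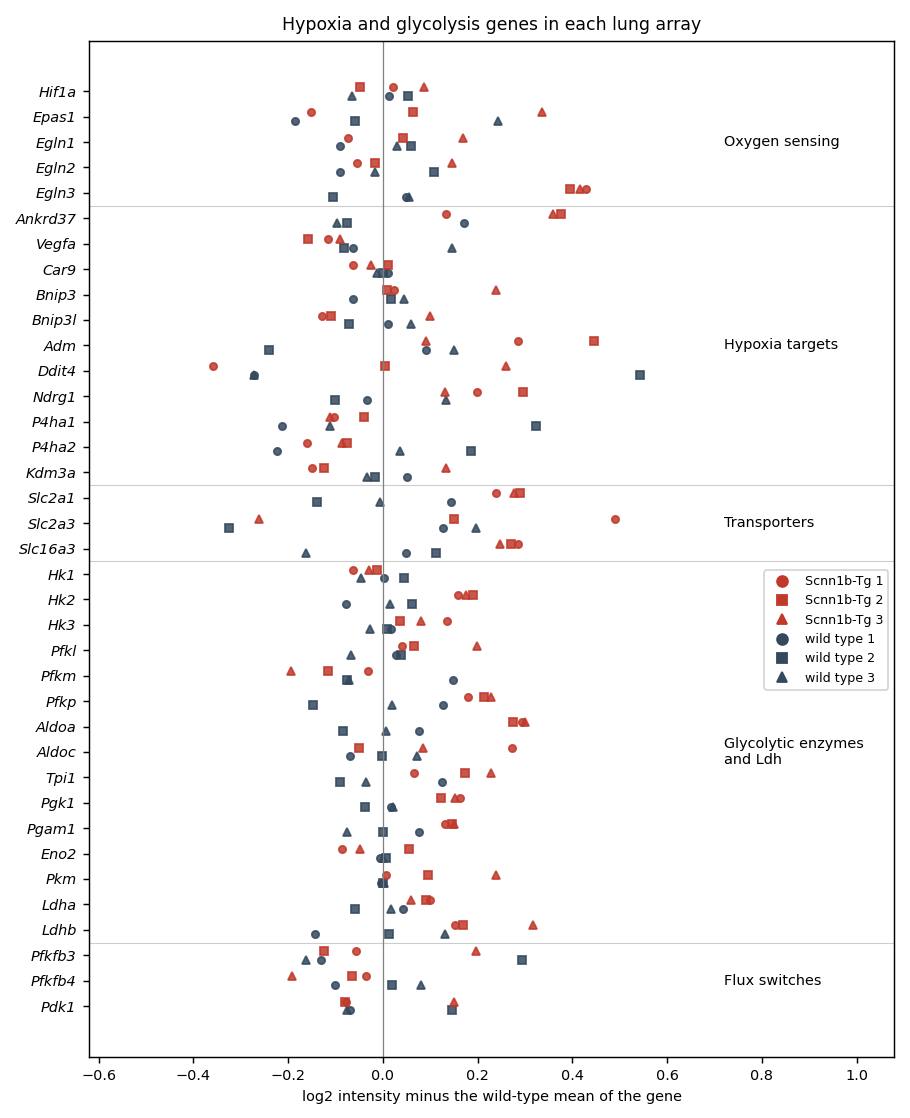
Log2 RMA intensity of the 37 genes in each array (x axis), as the difference from the mean of the 3 wild-type arrays of that gene, with Scnn1b-Tg arrays in red and wild-type arrays in dark blue and 1 symbol per replicate. Egln3, Slc16a3, Slc2a1, Hk2, Aldoa, Pgk1 and Pgam1 have all red points right of all blue points, whereas Hif1a, Epas1, Ddit4 and Pfkfb3 have mixed points.

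Among the oxygen-sensing genes Egln3, the prolyl hydroxylase whose gene is itself a HIF target, stood out. It had 35.3, 34.4 and 34.9 in Scnn1b-Tg lungs, against 27.1, 24.3 and 27.2 in wild-type lungs. The 3 Scnn1b-Tg values lay within 1 unit of each other and all above wild type. Its log2 fold change was 0.41 ± 0.06 (SE), or 33.2% higher, and its limma adjusted p was 0.139, rank 20 of the 19935 genes by p. These intensities are near the lowest on the arrays (18.3 to 18.6). With 16 subtracted from every intensity the log2 fold change was 0.90 with an adjusted p of 0.0320, and with an intensity trend and robust variance the adjusted p was 0.0213. Over all alternatives it ran from 0.0213 to 0.506, and the log2 fold change from 0.36 to 0.90. The promoter is shown because Egln3 had the smallest p of the 37 genes. It is the RefSeq window (GRCm38.p6) from 250 bases before the gene's start to 50 after it, read on the gene's strand, with the hypoxia response core ACGTG in capitals.
Egln3, chr12:54203825-54204124, minus strand: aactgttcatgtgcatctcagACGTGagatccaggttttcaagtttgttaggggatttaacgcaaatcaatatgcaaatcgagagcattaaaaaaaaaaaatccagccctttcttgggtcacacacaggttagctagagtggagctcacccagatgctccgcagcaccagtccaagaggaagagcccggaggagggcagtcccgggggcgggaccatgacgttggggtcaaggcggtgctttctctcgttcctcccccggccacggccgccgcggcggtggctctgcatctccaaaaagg
The window held 1 core, on the gene's strand, 229 bases before the start.

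The other oxygen-sensing genes, 2 HIF subunits and 2 hydroxylases, lay near 0. Hif1a, the broadly expressed α subunit, had 246, 235 and 257 in Scnn1b-Tg lungs, against 245, 252 and 232 in wild-type lungs. Its log2 fold change was 0.02 with a 95% interval from -0.11 to 0.15. Epas1, the α subunit of HIF-2, had 644, 747 and 902 in Scnn1b-Tg lungs, against 629, 687 and 847 in wild-type lungs. The 2 genotypes covered nearly the same range, and the log2 fold change was 0.08 with an interval from -0.27 to 0.43. Egln1, the main oxygen sensor of most tissues, averaged 104 ± 8.84 in Scnn1b-Tg and 101 ± 5.48 in wild type (SD, n = 3 each), and Egln2 averaged 169 ± 12.6 in Scnn1b-Tg and 166 ± 11.6 in wild type. Adjusted p-values of these 4 ran from 0.989 to 0.995 in limma. The signs of all 4 turned in at least 1 alternative, so they carry no direction.

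The 11 targets outside glycolysis split, with 4 higher and 7 lower in Scnn1b-Tg and a median log2 fold change of -0.03. Ankrd37, a small ankyrin protein induced by HIF-1, had 61.1, 72.3 and 71.5 in Scnn1b-Tg lungs, against 62.8, 52.9 and 52.1 in wild-type lungs. Scnn1b-Tg replicate 1 fell within the wild-type range and the other 2 lay above it. The log2 fold change was 0.29 ± 0.10 (SE, adjusted p = 0.739 in limma). The promoter of Ankrd37 is shown as that of the target with the largest log2 fold change, in the same way, with ACGTG and GCGTG on either strand in capitals.
Ankrd37, chr8:45999801-46000100, minus strand: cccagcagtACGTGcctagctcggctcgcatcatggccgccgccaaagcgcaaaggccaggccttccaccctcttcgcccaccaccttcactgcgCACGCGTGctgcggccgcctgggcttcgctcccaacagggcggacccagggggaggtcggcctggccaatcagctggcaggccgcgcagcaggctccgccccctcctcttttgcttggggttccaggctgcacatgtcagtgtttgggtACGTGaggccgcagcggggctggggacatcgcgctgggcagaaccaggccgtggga
It held ACGTG 2 times, at 241 and 6 bases before the start, and GCGTG 2 times, at 155 and 152 bases before it on opposite strands.

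Adm, which encodes the vasodilator peptide adrenomedullin, had 175, 196 and 153 in Scnn1b-Tg lungs, against 153, 122 and 159 in wild-type lungs. The ranges overlapped, and the log2 fold change of 0.27 ± 0.13 (SE) ran from 0.15 to 0.37 over the alternatives. Ndrg1, a stress-response gene linked to growth arrest, had 102, 109 and 97.4 in Scnn1b-Tg lungs, against 87.0, 83.1 and 97.6 in wild-type lungs. Only wild type replicate 3 reached the Scnn1b-Tg range, and the log2 fold change was 0.21 ± 0.07 (adjusted p = 0.757 in limma). Vegfa, the vascular endothelial growth factor, was the 1 member with every Scnn1b-Tg array below every wild-type array. It had 706, 685 and 718 in Scnn1b-Tg lungs, against 732, 722 and 847 in wild-type lungs. The gap between the groups was small beside the height of wild type replicate 3. The log2 fold change was -0.12 ± 0.07 (adjusted p = 0.896 in limma), and -0.05 without wild type replicate 3. Car9, a membrane carbonic anhydrase that is nearly silent in normoxic tissue, had 28.1, 29.6 and 28.9 in Scnn1b-Tg lungs, against 29.6, 29.4 and 29.1 in wild-type lungs. Those values are close to the lowest on the arrays, and the log2 fold change was -0.03 ± 0.04.

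Several targets varied more between arrays of 1 genotype than between genotypes. Ddit4, an inhibitor of mTORC1 signalling that also responds to glucocorticoids, had 101, 131 and 156 in Scnn1b-Tg lungs, against 108, 190 and 108 in wild-type lungs. Wild type replicate 2 was the highest of the 6, and the 95% interval of the log2 fold change ran from -0.62 to 0.56. P4ha1, a collagen prolyl hydroxylase subunit, had 234, 245 and 233 in Scnn1b-Tg lungs, against 217, 315 and 233 in wild-type lungs, again with wild type replicate 2 highest. Its log2 fold change of -0.08 was 0.08 without that array. P4ha2, the second such subunit, had 70.2, 74.4 and 73.9 in Scnn1b-Tg lungs, against 67.2, 89.3 and 80.5 in wild-type lungs. Wild type replicate 2 was once more the highest and wild type replicate 1 the lowest. The histone demethylase Kdm3a averaged 161 ± 17.9 in Scnn1b-Tg and 165 ± 5.09 in wild type (SD, n = 3 each). The mitophagy receptors Bnip3 and Bnip3l gave log2 fold changes of 0.09 ± 0.07 and -0.05 ± 0.07 (SE).

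Among the transporters, Slc2a1, the basal glucose transporter GLUT1, had 116, 120 and 119 in Scnn1b-Tg lungs, against 108, 89.0 and 97.6 in wild-type lungs. All Scnn1b-Tg arrays lay above all wild-type arrays, and the 3 were closer together than the wild-type arrays. The log2 fold change was 0.27 ± 0.07 (SE), or 20.4% higher, with an adjusted p of 0.575 in limma. Slc16a3, the lactate exporter MCT4, had 74.9, 74.0 and 72.9 in Scnn1b-Tg lungs, against 63.5, 66.4 and 54.9 in wild-type lungs. The genotypes were again separate, and the value was again 20.4% higher (adjusted p = 0.575). Slc2a3, the glucose transporter GLUT3 of neurons and leukocytes, had 122, 96.2 and 72.4 in Scnn1b-Tg lungs, against 94.7, 69.2 and 99.4 in wild-type lungs. The groups overlapped, with Scnn1b-Tg replicate 3 near the bottom of the wild-type range and Scnn1b-Tg replicate 1 above its top, and the log2 fold change was 0.13 with an interval from -0.37 to 0.62.

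**Figure D2:**
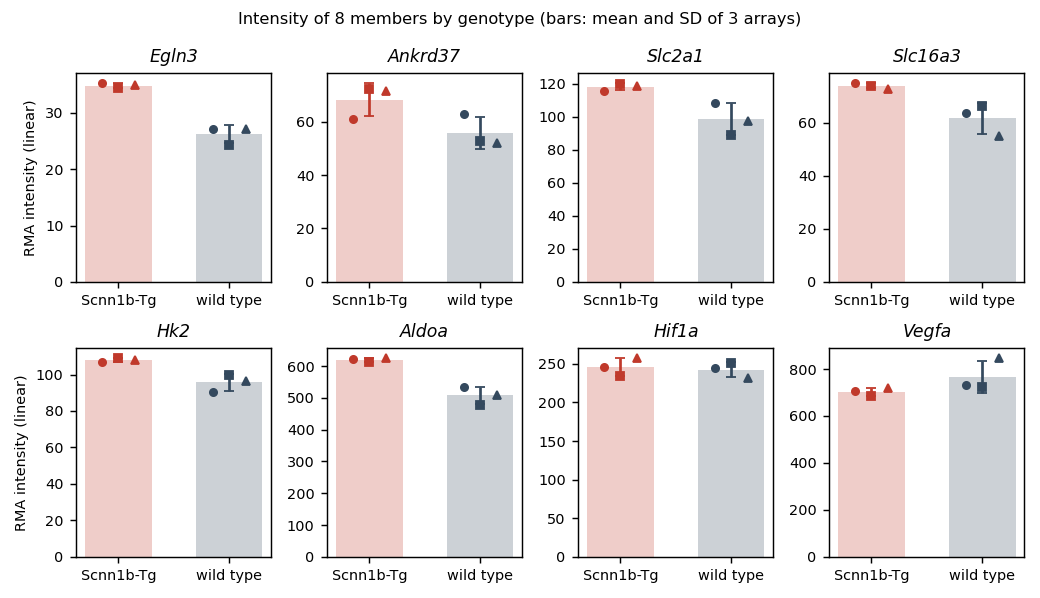
RMA intensity on a linear axis from 0 for 8 genes, with bars at the mean, error bars of 1 SD and 1 point per array (3 Scnn1b-Tg arrays in red, 3 wild-type arrays in dark blue). Egln3, Slc2a1, Slc16a3, Hk2 and Aldoa are separate between genotypes by small margins, Ankrd37 and Hif1a overlap, and Vegfa is slightly lower in Scnn1b-Tg.

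Along the pathway, 12 of 15 measured enzymes were higher in Scnn1b-Tg, 10 of them with no overlap, where 53.2% of all genes were higher and 6.26% were separate and higher. The median log2 fold change was 0.11. Array medians were also higher in every Scnn1b-Tg array (48.3 to 48.5) than in every wild-type array (47.6 to 47.8). Relative to intensity, the margins of Pfkl and Pkm were smaller than this offset. Separation after centring on medians was not counted, and 22 of the 37 genes were then higher, in place of 25. With probe sets numbered among genes of each enzyme's own chromosome (own-locus probe sets), 12 of 15 were higher, 8 of them with no overlap. At an unadjusted p under 0.05 in limma 5 were higher, in place of 6, where 3.96% of all genes were. Hexokinase traps glucose in the cell as its phosphate. Hk2, the inducible hexokinase, had 107, 109 and 108 in Scnn1b-Tg lungs, against 90.5, 99.8 and 96.6 in wild-type lungs, separate and 12.9% higher (adjusted p = 0.607 in limma). Hk3, the hexokinase of myeloid cells, had 38.9, 36.2 and 37.4 in Scnn1b-Tg lungs, against 35.8, 35.6 and 34.7 in wild-type lungs, separate by a margin under 1 unit. The 3 phosphofructokinase genes, for the committed step, differed in sign. Pfkp, the platelet type, had 160, 164 and 166 in Scnn1b-Tg lungs, against 154, 128 and 143 in wild-type lungs, a log2 fold change of 0.21 ± 0.07 (SE). Pfkl, the liver type, had 137, 139 and 153 in Scnn1b-Tg lungs, against 136, 137 and 127 in wild-type lungs, separate by a margin under 1 unit. Pfkm, the muscle type, had 169, 159 and 151 in Scnn1b-Tg lungs, against 191, 164 and 164 in wild-type lungs. Scnn1b-Tg replicate 1 lay within the wild-type range of Pfkm, and the log2 fold change was -0.11 ± 0.08.

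Aldolase splits the 6-carbon sugar, and Aldoa, its most widespread form, had the largest log2 fold change of the enzymes. It had 622, 614 and 625 in Scnn1b-Tg lungs, against 535, 479 and 510 in wild-type lungs. The 3 Scnn1b-Tg arrays were close together and all above wild type. The log2 fold change was 0.29 ± 0.05 (SE), or 22.2% higher, with an adjusted p of 0.225 in limma that ran from 0.146 to 0.689 over the alternatives. Aldoc, the brain form, averaged 61.6 ± 6.98 in Scnn1b-Tg and 57.2 ± 2.80 in wild type (SD, n = 3 each), with overlap. Tpi1, triose phosphate isomerase, had 280, 301 and 313 in Scnn1b-Tg lungs, against 292, 251 and 261 in wild-type lungs. Wild type replicate 1 reached into the Scnn1b-Tg range, and the log2 fold change was 0.16 ± 0.07.

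Further along the pathway, Pgk1, the first ATP-forming enzyme, had 412, 401 and 409 in Scnn1b-Tg lungs, against 373, 359 and 374 in wild-type lungs. That was separate and 10.6% higher (adjusted p = 0.613 in limma). Pgam1, phosphoglycerate mutase, had 180, 182 and 182 in Scnn1b-Tg lungs, against 173, 164 and 156 in wild-type lungs, separate and 10.4% higher. Eno2, the enolase of neurons, averaged 30.7 ± 1.57 in Scnn1b-Tg and 31.2 ± 0.14 in wild type (SD, n = 3 each), close to the lowest intensities on the arrays. Ldha, which turns pyruvate into lactate, had 899, 895 and 875 in Scnn1b-Tg lungs, against 864, 806 and 849 in wild-type lungs. The Ldha groups were separate, and the value was 5.95% higher (adjusted p = 0.892). Without wild type replicate 2 and Scnn1b-Tg replicate 3, 2 of the 15 enzymes, in place of 6, were higher at an unadjusted p under 0.05. Of all genes 4.14%, in place of 3.96%, were. With those 2 arrays left out 10 of the 15 enzymes were separate and higher, where 19.1% of all genes were.

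The 3 switches of glycolytic flux gave no common direction. Pfkfb3, which makes the activator fructose 2,6-bisphosphate, had 180, 172 and 215 in Scnn1b-Tg lungs, against 172, 230 and 168 in wild-type lungs. Pdk1, the kinase that closes pyruvate dehydrogenase and a HIF-1 target, had 76.8, 76.7 and 89.9 in Scnn1b-Tg lungs, against 77.2, 89.6 and 76.9 in wild-type lungs. In both genes wild type replicate 2 and Scnn1b-Tg replicate 3 were the 2 highest arrays, as they were for Ddit4. Log2 fold changes were 0.0051 ± 0.14 for Pfkfb3 and -0.0025 ± 0.09 for Pdk1 (SE). Pfkfb4, a related kinase-phosphatase, had 106, 104 and 94.8 in Scnn1b-Tg lungs, against 101, 110 and 115 in wild-type lungs, with overlap.

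Of the 7 members with several single-gene probe sets, 6 had their brightest one away from the gene. This was read from the probe set numbers, which follow the chromosomes: among the 20 nearest named probe sets, 17 or more belonged to genes of another chromosome than the member's. The brightest Bnip3 probe set lay among chromosome 14 genes, whereas Bnip3 is on chromosome 7. The probe set among chromosome 7 genes had 82.7, 92.1 and 82.1 in Scnn1b-Tg lungs, against 83.5, 90.2 and 103.5 in wild-type lungs. Its log2 fold change was -0.11 ± 0.09 (SE), opposite in sign to 0.09 for the brightest. For Pkm, the last enzyme of glycolysis, the brightest probe set had 373, 397 and 438 in Scnn1b-Tg lungs, against 370, 372 and 373 in wild-type lungs. The probe set among the genes of its own chromosome 9 had 353, 364 and 353 in Scnn1b-Tg lungs, against 337, 391 and 352 in wild-type lungs. Pkm was therefore separate with the first probe set (log2 fold change 0.11) and overlapping with the second (-0.01). Ldhb, the heart-type lactate dehydrogenase, was 0.21 ± 0.08 with the brightest and 0.10 ± 0.09 with the probe set of its own chromosome 6, where the genotypes overlapped.

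The brightest Hk1 probe set, with 1957, 2029 and 2003 in Scnn1b-Tg lungs, against 2047, 2110 and 1980 in wild-type lungs, was linked to Hk1 by 1 sequence record. The same record stands behind 16 probe sets that the annotation gives to both Hk1 and the ribosomal protein gene Rpl17, with mean intensities from 718 to 2506. It is also listed for the Hk1 probe set among chromosome 10 genes, where Hk1 lies, which had 102, 104 and 121 in Scnn1b-Tg lungs, against 102, 91.9 and 108 in wild-type lungs. The log2 fold change was -0.04 ± 0.04 with the brightest and 0.11 ± 0.09 with the other. Whether the bright Hk1 values measure hexokinase was not tested. Pgk1 gave 0.15 with the brightest and 0.14 with the probe set among X-linked genes, and Bnip3l gave -0.05 with either. With the probe sets at the genes' own loci, 10 of the 37 were higher at an unadjusted p under 0.05 and 11 were separate and higher. With brightest probe sets these held for 3.96% and 6.26% of all genes. The medians were 0.10 for the enzymes and -0.05 for the non-glycolytic targets. This choice of probe set was made after seeing the data.

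**Figure D3:**
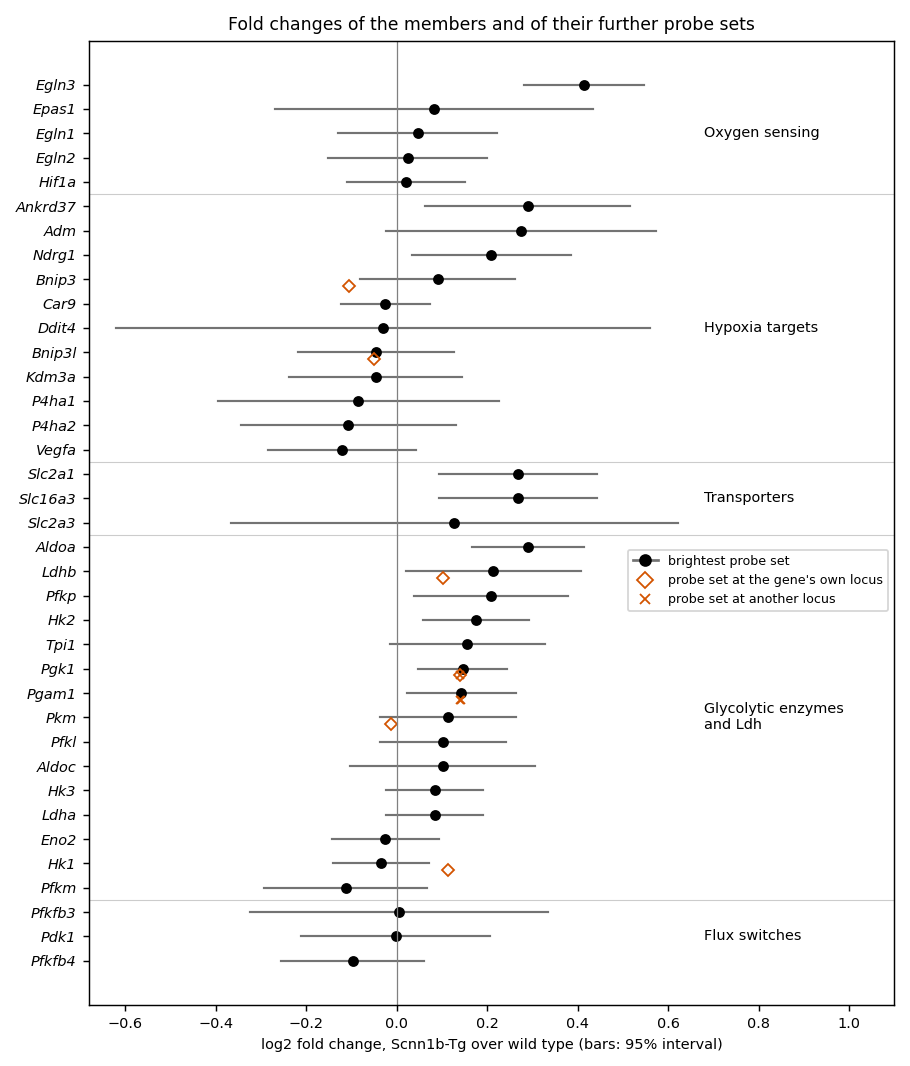
Log2 fold change of Scnn1b-Tg over wild type (x axis) for the 37 genes by group, with the 95% interval of the limma fit as a bar, the brightest probe set as a black point, and orange marks for further probe sets at the gene's own locus or elsewhere. The intervals of Egln3, Ankrd37, Ndrg1, Slc2a1, Slc16a3, Aldoa, Ldhb, Pfkp, Hk2, Pgk1 and Pgam1 lie above 0, none lies below 0, and the orange marks of Bnip3, Pkm and Hk1 fall on the other side of 0 from the black points.

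Averaged over members, the enzymes deviated from their 6-array means by 0.05, 0.04 and 0.07 on the log2 scale in Scnn1b-Tg lungs, against -0.03, -0.08 and -0.06 in wild-type lungs. All Scnn1b-Tg arrays lay above all wild-type arrays, also with own-locus probe sets, where they had 0.04, 0.05 and 0.07 against -0.03, -0.07 and -0.05 in wild type. The non-glycolytic targets deviated by -0.06, 0.04 and 0.07 in Scnn1b-Tg lungs, against -0.07, 0.03 and -0.01 in wild-type lungs, and overlapped. The oxygen-sensing genes gave -0.02, 0.03 and 0.17 in Scnn1b-Tg lungs, against -0.12, -0.05 and -0.01 in wild-type lungs. In these 16 genes Scnn1b-Tg replicate 3 was the highest Scnn1b-Tg array for 9, or 56.2%, where it was the highest for 38.0% of all genes.

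**Figure D4:**
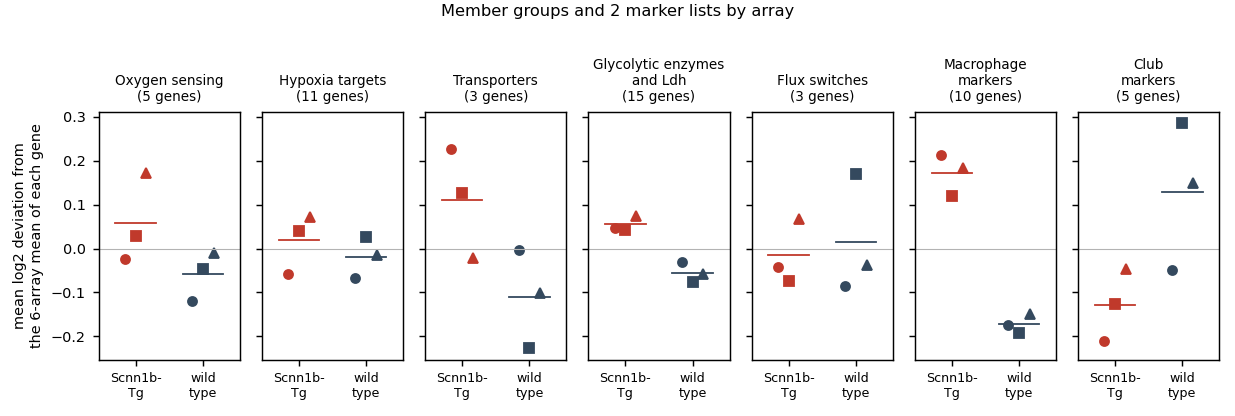
Mean log2 deviation of each gene list from the 6-array mean of its genes (y axis) in the 3 Scnn1b-Tg arrays (red, left) and the 3 wild-type arrays (dark blue, right), with a line at each genotype's mean and the same symbol per replicate in every panel. The glycolytic enzymes and the macrophage markers are separate between genotypes, and the oxygen-sensing genes, hypoxia targets, transporters, flux switches and club cell markers overlap.

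The same promoter windows are shown for 4 of the glycolytic members that were separate between genotypes, from uptake (Slc2a1) through the pathway (Aldoa and Pgk1) to lactate export (Slc16a3). ACGTG and GCGTG on either strand are in capitals, and Aldoa is shown at 1 of its 3 annotated starts.
Slc2a1, chr4:119108495-119108794, plus strand: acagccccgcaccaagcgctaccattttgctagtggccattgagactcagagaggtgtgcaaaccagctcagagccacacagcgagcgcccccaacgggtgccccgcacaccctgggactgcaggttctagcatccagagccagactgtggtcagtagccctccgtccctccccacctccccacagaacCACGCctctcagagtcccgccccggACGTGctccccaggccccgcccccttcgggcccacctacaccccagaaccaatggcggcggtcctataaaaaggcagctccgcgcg
Slc16a3, chr11:120948817-120949116, plus strand: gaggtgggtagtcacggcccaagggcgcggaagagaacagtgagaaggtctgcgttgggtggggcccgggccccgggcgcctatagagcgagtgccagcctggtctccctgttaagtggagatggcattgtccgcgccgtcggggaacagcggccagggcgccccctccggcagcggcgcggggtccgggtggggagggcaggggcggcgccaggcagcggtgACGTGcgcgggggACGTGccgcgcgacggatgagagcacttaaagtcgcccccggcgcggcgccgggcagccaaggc
Aldoa, chr7:126799205-126799504, minus strand: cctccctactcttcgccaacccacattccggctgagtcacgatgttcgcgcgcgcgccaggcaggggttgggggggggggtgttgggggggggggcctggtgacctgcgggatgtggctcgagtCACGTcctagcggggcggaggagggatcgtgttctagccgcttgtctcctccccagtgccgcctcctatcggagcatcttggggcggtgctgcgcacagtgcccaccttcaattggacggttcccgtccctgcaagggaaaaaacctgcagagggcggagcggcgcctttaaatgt
Pgk1, chrX:106186850-106187149, plus strand: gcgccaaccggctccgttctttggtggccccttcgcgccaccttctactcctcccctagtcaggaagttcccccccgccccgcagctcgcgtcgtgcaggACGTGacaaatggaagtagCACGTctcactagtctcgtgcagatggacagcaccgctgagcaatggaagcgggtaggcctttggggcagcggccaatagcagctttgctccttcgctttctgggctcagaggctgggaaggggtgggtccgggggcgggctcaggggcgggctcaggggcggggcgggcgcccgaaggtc
Slc2a1 held GCGTG at 61 and ACGTG at 36 bases before the start, on opposite strands. Slc16a3 held ACGTG at 27 and 14 bases before it on the gene's strand. Aldoa held ACGTG once, at 126 bases, on the opposite strand, and Pgk1 held it at 150 and 131 bases on opposite strands. Positions are those of the motif's first base in the window. The Aldoa window at chr7:126800398-126800697, of another start, held 0 of either form. Either form was present in at least 1 window of 32 of the 35 members that the RefSeq table holds, and of 46.7% of all genes in the table. That was 13 of 13 oxygen-sensing genes and non-glycolytic targets, and 19 of 22 transporters, enzymes and flux switches. A link between the motifs and the fold changes was not tested. Member windows had a median of 20 CG dinucleotides, beside 7 over all windows, and both motifs contain CG. ACGTG within CACGTG, the E-box, was counted as well, and 11.5% of member windows and 7.15% of all windows held CACGTG.

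Of the rest of the HIF and glucose pathways, on lists beside the 39 genes, 0 genes were called in limma (smallest adjusted p = 0.206). Of 15 HIF partners and brakes 8 were higher, 0 passed an unadjusted p of 0.05, and the median log2 fold change was 0.0035. The largest were Cited4, a coactivator-binding protein, at 0.16 ± 0.07 (SE), Crebbp at 0.11 ± 0.08 and Ep300 at 0.10 ± 0.08, the 2 last being coactivators of HIF. Of 33 further HIF targets 18 were higher and 15 lower, with a median of 0.06. At an unadjusted p under 0.05 in limma 6 were higher, where 3.96% of all genes were, and 1 was lower, where 2.05% were. That 1 was Higd1a at -0.22 ± 0.08 (SE), and Hilpda (-0.23 ± 0.12) and Plod2 (-0.21 ± 0.12) were lower with overlap. Hmox1, heme oxygenase, averaged 126 ± 10.5 in Scnn1b-Tg and 93.7 ± 8.98 in wild type (SD, n = 3 each), a log2 fold change of 0.42 ± 0.09 (SE, adjusted p = 0.360). Nfil3, a transcription factor of immune cells, gave 0.40 ± 0.20 with overlap. Trf, transferrin, averaged 815 ± 17.2 in Scnn1b-Tg and 655 ± 34.9 in wild type (SD, n = 3 each), a log2 fold change of 0.32 ± 0.05 (SE, adjusted p = 0.206).

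Of 19 other glycolysis genes 12 were higher, with a median of 0.01, and at an unadjusted p under 0.05 in limma 0 were higher and 1 was lower. Of all genes 53.2% were above 0, 3.96% were higher at that p and 2.05% were lower. These shares also stand beside the counts of the lists that follow in this paragraph. Bpgm, the red cell enzyme that makes 2,3-bisphosphoglycerate, was the largest, lower in Scnn1b-Tg at -0.36 ± 0.09 (SE, adjusted p = 0.478). The muscle mutase Pgam2 gave -0.15 ± 0.07 and Bsg, the chaperone of lactate transporters, 0.13 ± 0.11. All 7 gluconeogenesis genes were higher, 2 at an unadjusted p under 0.05, led by Fbp1, fructose bisphosphatase. Fbp1 averaged 51.5 ± 14.0 in Scnn1b-Tg and 27.5 ± 4.81 in wild type (SD, n = 3 each), a log2 fold change of 0.88 ± 0.20 (SE, adjusted p = 0.403), and the arrays were separate. Pcx, pyruvate carboxylase, gave 0.30 ± 0.06 and Pck1 0.15 ± 0.12. All 6 pentose phosphate genes were higher, 2 at an unadjusted p under 0.05, with a median of 0.08, led by Pgls at 0.19 ± 0.04, Tkt at 0.18 ± 0.06 and Rpe at 0.08 ± 0.06. In the tricarboxylic acid cycle 8 of 15 were higher, 2 at an unadjusted p under 0.05, with a median of 0.04, led by Cs, citrate synthase, at 0.21 ± 0.07 and Ogdh at 0.16 ± 0.05, with Idh3a at -0.15 ± 0.08. Of 9 genes of pyruvate import and dehydrogenase 8 were higher, 1 at an unadjusted p under 0.05, with a median of 0.04, led by Pdhb at 0.13 ± 0.05, with Dlat at -0.09 ± 0.08 and Pdk2 at 0.08 ± 0.15.

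Summed intensities of several cell type marker lists also differed between genotypes without overlap, and their part in the enzyme values was not tested. None of these markers was called in limma (smallest adjusted p = 0.139). Of 10 macrophage markers 9 were higher, with a median log2 fold change of 0.35. For 7 of them there was no overlap, where 6.26% of all genes were separate and higher. Their summed intensity was 1251 to 1340 in Scnn1b-Tg and 1014 to 1049 in wild type. The largest were Itgam at 0.91 ± 0.15 (SE), Adgre1 at 0.76 ± 0.17 and Itgax at 0.53 ± 0.08. Fcgr1 (-0.06 ± 0.07), Mertk (0.04 ± 0.07) and Marco (0.01 ± 0.12) overlapped between genotypes. The summed intensity of 4 eosinophil markers was 175 to 330 in Scnn1b-Tg and 136 to 144 in wild type. Ccr3 gave 1.40 ± 0.32, Prg2 0.41 ± 0.17 and Il5ra 0.22 ± 0.06, while Epx (0.07 ± 0.05) overlapped. The 9 neutrophil markers had a median of 0.01, with 5 higher and a summed intensity of 646 to 912 in Scnn1b-Tg and 435 to 569 in wild type. That sum was carried by Retnlg (1.38 ± 0.35), while S100a8 gave -0.08 ± 0.12 and Mpo -0.07 ± 0.08.

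All 5 club cell markers were lower, led by Cyp2f2 at -0.48 ± 0.08 (SE), Scgb1a1 at -0.31 ± 0.07 and Scgb3a2 at -0.29 ± 0.16, with a summed intensity of 9812 to 10482 in Scnn1b-Tg and 10896 to 13610 in wild type. Of 8 cardiac and skeletal muscle markers 6 were lower, led by Myl7 at -0.46 ± 0.17, Myh6 at -0.42 ± 0.11 and Tnnt2 at -0.42 ± 0.12. Their summed intensity was 848 to 1143 in Scnn1b-Tg and 1154 to 1416 in wild type. Of the erythroid list Alas2 (-0.46 ± 0.16) and Slc4a1 (-0.11 ± 0.18) were measured. The 6 endothelial markers were all lower, with a median of -0.07, and the 6 alveolar type 2 and 6 alveolar type 1 markers had medians of 0.03 and -0.01. Medians were 0.44 for 3 cycling genes, all higher and none separate, 0.11 for 6 fibroblast and smooth muscle genes, 0.06 for 6 lymphocyte genes, 0.04 for 4 fat genes and 0.02 for 5 ciliated cell genes. The cycling genes averaged a deviation of -0.74 on wild type replicate 2 and between -0.14 and 0.31 on the other arrays.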

How the data were processed

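Total RNA of mouse lung was extracted with Trizol and labelled by a whole-transcript method for Affymetrix arrays, per the labels' protocols. The authors deposited linear-scale intensities, 1 per probe set. The submitters' processing notes name RMA, without version or settings. Of 28815 probe sets 21780 carry exactly 1 gene symbol in the platform annotation, and the brightest per gene over the 6 arrays was taken, which gave 19935 genes.

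Each gene's log2 intensity was modelled in limma 3.58.1 (R 4.3.3; lmFit, then eBayes, with genotype as the only term, two-sided, Benjamini-Hochberg adjustment over all genes, called under 0.05). The fit was tested on simulated data with known changes. The number of arrays limits the precision. The genes described, their lists and the rule for naming genes (all 39, Scnn1b, and for each other list up to 3 with the largest absolute log2 fold change) were chosen with earlier results of these data known. Some list members that overlapped or were lower are named outside that rule. Deviations of same-numbered samples from their group means correlated at 0.026, 0.028 and 0.039. These were above the values of differently numbered samples, -0.063 to 0.024. All were small, and the replicate numbers were not taken as pairs. The fit was repeated with a replicate block, with arrays left out, with array weights, after quantile normalization or centring on medians, with 16 subtracted, without the 6645 dimmest genes, with probe sets averaged per gene, and with robust variances that follow an intensity trend. Promoter sequences and chromosomes are from RefSeq (GRCm38.p6).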

Additional observations from a re-analysis of the deposited data

How the results depend on the processing

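None of the 37 genes was called in any setting but Egln3, called with 16 subtracted and with trended robust variances; with the 6645 dimmest genes left out Egln3 was not tested. The count of called genes over all genes was 1 as reported, 39 without the dimmest genes, 36 with trended robust variances, 23 with 16 subtracted, 3 with the replicate block, 6 without both arrays that stood apart, and 0 to 5 in limma with single arrays left out (5 without Scnn1b-Tg replicate 3, and 0 without wild type replicate 3). The cause was not tested. The block changed no call among the 37 genes. The median log2 fold change of the enzymes was 0.0875 with median centring, 0.0942 with array weights, 0.1491 with 16 subtracted and 0.0900 without both arrays, and 0.1105 to 0.1408 with single arrays left out. That of all glycolysis members was 0.0875, 0.1491 and 0.0900 with median centring, 16 subtracted and without both arrays. The median of the non-glycolytic targets was 0.0253 without both arrays, and -0.0710 (without Scnn1b-Tg replicate 3) to 0.0770 (without wild type replicate 2) with single arrays left out. Signs turned in these cases: Pfkfb3 to -0.0061 with quantile normalization; Hif1a to -0.0059, Egln2 to -0.0008 and Pfkfb3 to -0.0204 with median centring; Bnip3 to -0.0079 and Hk1 to 0.0386 with the mean over probe sets; Epas1 to -0.0123, Ddit4 to 0.0079 and Pfkfb3 to -0.0003 with array weights; Epas1 to -0.0732, Ddit4 to 0.0951 and P4ha1 to 0.0907 without both arrays; and Bnip3 to -0.1064, Hk1 to 0.1122 and Pkm to -0.0118 with own-locus probe sets. With single arrays left out the ranges were -0.0136 to 0.0534 for Hif1a, -0.0441 to 0.2046 for Epas1, -0.0154 to 0.1065 for Egln1, -0.0355 to 0.0784 for Egln2, -0.1767 to 0.2409 for Ddit4, -0.1364 to 0.0051 for Kdm3a, -0.1908 to 0.0770 for P4ha1, -0.0548 to 0.3203 for Slc2a3, -0.0664 to 0.0044 for Eno2, -0.0908 to 0.1518 for Pfkfb3 and -0.0786 to 0.0702 for Pdk1. Over the 37 genes and all alternatives, 552 values kept their sign and their side of the threshold, 35 turned and 2 became called. The largest standard errors of the 37 were those of Ddit4 (0.2494), Slc2a3 (0.2089), Epas1 (0.1488) and Pfkfb3 (0.1389). Genes near the lowest intensity (Car9, Eno2, Egln3, Hk3) had standard errors from 0.0418 to 0.0557. At such intensities a subtracted constant alters the fold change, which for Egln3 went from 0.41 to 0.90.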
